A study of Mus musculus with 12 samples.

Results

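The genes described here are the box C/D small nucleolar RNA (snoRNA) genes of the mouse, taken as every gene whose symbol starts with Snord followed by a digit. The RefSeq gene table of assembly GRCm38.p6, whose chromosomes are those of the mm10 build used for the regions, held 94 such genes among 49636 genes used. They were set against a list of 4973 genomic regions where a FLAG-tagged Zscan4 protein was called in mouse embryonic stem (ES) cells. A gene was counted as having a region when the midpoint of a region lay inside the gene or within 10 kb of either end. By symbol, 17 of the 94 genes belonged to the imprinted Snord116 array of chromosome 7 and 77 lay elsewhere. No gene of the table carried a Snord115 symbol, so that the Snord115 array could not be counted by name. The table classed 93 of the 94 genes as snoRNA, and Snord73b as snRNA.

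The regions came from J1, a mouse ES cell line whose strain is labelled 12910la, grown with serum and leukaemia inhibitory factor on gelatin. Wild-type cells were transfected with 1000 ng of a pCMV FLAG plasmid that held the Zscan4c coding sequence. Selection in 500 ug/ml G418 began after 24 h and ran for 10 days, and single clones were then picked, so that expression was driven by a viral promoter in clonal cells. The labels gave 12 samples in 12 groups of 1, 7 of overexpressing and 5 of wild-type ES cells. The FLAG immunoprecipitation of the overexpressing cells gave the list, the labels also name an input of those cells, and the other 10 samples (H3K27ac, H3K14ac and H3K4me1 immunoprecipitations and their inputs) were not analysed here. With no replicate and no region list from wild-type cells, nothing here compares conditions. Depth was unknown, and a gene without a listed region was not shown to be unbound.

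Box C/D snoRNAs are short nucleolar RNAs that are bound by fibrillarin, Nop56, Nop58 and Snu13 and guide the addition of methyl groups to the ribose of ribosomal and spliceosomal RNA. Most are not transcribed from promoters of their own: they lie in introns of host genes, often genes for ribosomal proteins or for non-coding transcripts such as Gas5 and the Snhg genes, and are released when the host transcript is spliced. A few, among them Snord118 (U8) and Snord13 (U13), are transcribed independently. Snord116 and Snord115 are tandem arrays in the long imprinted transcript that starts at Snurf-Snrpn, are expressed from the paternal chromosome, most strongly in brain, and are orphan guides without a known site in ribosomal RNA. Zscan4 is a zinc finger protein of the 2-cell embryo and of a transient ES cell state, known for a role in telomere maintenance.

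FLAG-Zscan4 was listed in or within 10 kb of 13 of the 94 Snord genes (13.8%), against 4413 of all 49636 genes (8.89%) and 280 of the 4920 genes that are no longer than the longest Snord gene (221 bases; 5.69%). These 13 genes shared 7 regions, because a single region in the Snord116 array stood within 10 kb of 7 neighbouring array genes. Outside the array, 6 of 77 genes (7.79%) had a region, each a different one, which lies between the share of all genes and that of short genes. The family was chosen by this share of genes near a region, so these counts are a description and carry no test. Counted by locus, with genes within 10 kb of each other joined, 7 of 56 Snord loci (12.5%) had a region. Other genes were not joined into loci, so this share has no like background. It cannot be set against the shares by gene, since a joined locus covers more sequence than 1 gene. No Snord gene had more than 1 region. The family's share was no longer above that of all genes with a window of 5 kb, where 6 of 94 genes (6.38%) had a region beside 6.58% of all genes and 3.01% of short genes. Of those 6, 2 lay among the 77 outside the array (2.6%). With a window of 50 kb, 35 of 94 genes (37.2%) had a region, among them all 17 of the array and 18 of the other 77 (23.4%), beside 23.2% of all genes and 20.3% of short genes.

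**Figure D1:**
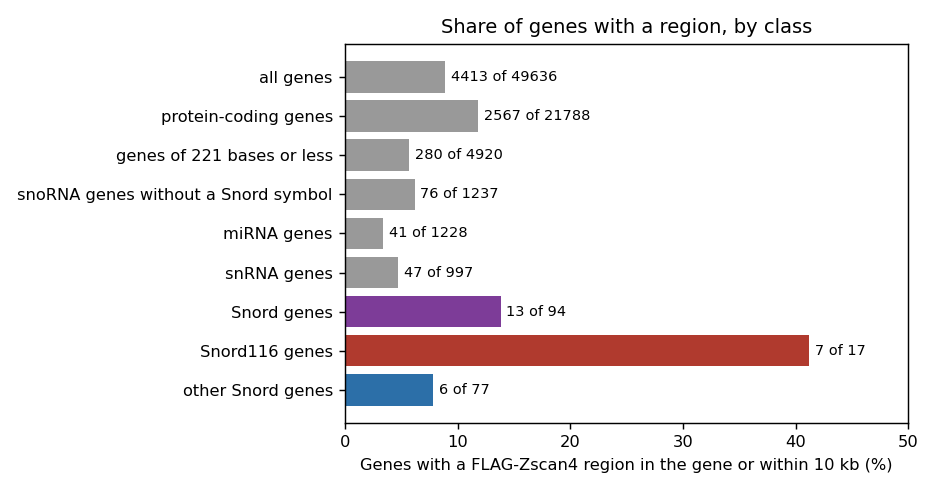
Bars give the percentage of genes with a FLAG-Zscan4 region midpoint in the gene or within 10 kb (x axis), for classes of the gene table (y axis), with the counts beside each bar. The bar of the 17 Snord116 genes rests on 1 region, and the 77 other Snord genes (6 with a region) lie near the classes in grey.

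Because snoRNAs leave the host transcript, the promoters that drive them are those of the host genes. Of the 6 members with a region outside the array, 4 lie in short non-coding host genes: Snord47 in Gas5, Snord99 in Snhg12, Snord22 in Snhg1 and Snord12 in Zfas1. The RefSeq promoter windows (GRCm38.p6, 250 bases before the annotated start and 50 after it) of the first 3 hosts are printed because the regions that gave these members their count lay several kilobases away from them. All 3 are on the plus strand, and capitals mark the 50 bases from the annotated start. For Gas5 the second of its 2 tabled starts is shown.

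Gas5, chr1:161034916-161035215, plus strand: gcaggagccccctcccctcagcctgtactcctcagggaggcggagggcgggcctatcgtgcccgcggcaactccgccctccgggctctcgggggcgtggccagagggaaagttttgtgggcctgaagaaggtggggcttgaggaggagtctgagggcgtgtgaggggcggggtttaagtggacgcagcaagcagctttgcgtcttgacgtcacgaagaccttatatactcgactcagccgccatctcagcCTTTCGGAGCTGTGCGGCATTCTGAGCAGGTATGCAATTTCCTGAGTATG
Snhg12, chr4:132308428-132308727, plus strand: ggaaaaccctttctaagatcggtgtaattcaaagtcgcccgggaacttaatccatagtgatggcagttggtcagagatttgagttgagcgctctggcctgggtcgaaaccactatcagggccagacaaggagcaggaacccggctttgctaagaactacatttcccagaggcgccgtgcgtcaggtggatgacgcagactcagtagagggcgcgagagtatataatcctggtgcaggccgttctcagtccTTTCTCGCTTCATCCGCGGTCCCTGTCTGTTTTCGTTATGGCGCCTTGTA
Snhg1, chr19:8723237-8723536, plus strand: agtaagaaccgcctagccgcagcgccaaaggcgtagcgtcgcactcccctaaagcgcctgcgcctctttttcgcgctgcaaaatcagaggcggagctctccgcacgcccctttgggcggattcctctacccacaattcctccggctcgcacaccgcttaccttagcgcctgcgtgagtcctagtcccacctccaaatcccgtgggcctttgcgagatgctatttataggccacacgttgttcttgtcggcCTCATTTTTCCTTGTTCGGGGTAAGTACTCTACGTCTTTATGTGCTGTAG

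The nearest region midpoint lay 9.43 kb from the Gas5 start shown above, 5.36 kb from the Snhg12 start and 7.12 kb from the Snhg1 start, and 12.3 kb from that of Zfas1. Promoter windows were tabled for 46 of the 59 host genes, and none of their 49 distinct windows overlapped a region, against 43 of all 32817 distinct windows in the table (0.131%). At that background fewer than 1 overlap would fall among 49 windows, and nothing is read from its absence. The letters TGCACAC, a motif reported for Zscan4, were searched on both strands and occurred in 2 of the 49 host windows (4.08%) and in 4.4% of all windows of 300 bases. The repeat TGTGTGTG, also searched on both strands, occurred in 3 of the 49 (6.12%) and in 4.09% of all windows. The 2 motifs can share bases where a TG repeat runs into GTGTGCA. None of the windows printed holds either motif, nor does that of Zfas1. A match describes letters only and shows no binding. The sequences of the Snord genes themselves and of the regions were not used here.

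Non-coding host genes held 4 of the 6 members outside the array. Snord47, a methylation guide of ribosomal RNA, lies in Gas5 (growth arrest specific 5; chromosome 1, 161034601 to 161038539), at 161038092 to 161038156. The region near it (513 bp, score 47) lay 6.44 kb beyond the gene and outside Gas5. The score is the authors' own value per region with a scale that no source used here gives, and it only ranks regions within this list, whose median score was 33 (quartiles 23 and 55). The table lists 8 snoRNA genes inside Gas5. The other 7 have no Snord symbol, and all 8 lay within 10 kb of this same region.

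Snord99, at 132310703 to 132310758 on chromosome 4, lies in Snhg12 (132308678 to 132311024) together with the box H/ACA genes Snora16a, Snora44 and Snora61. A region at 132313841 to 132314232 (392 bp, score 32) lay 3.28 kb from Snord99, the shortest distance of the 77 genes outside the array. It fell inside Trnau1ap, which encodes a protein associated with the selenocysteine tRNA, and within 10 kb of all 4 snoRNA genes of Snhg12. As at Gas5, 1 region stood beyond the host gene and near all its snoRNA genes.

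Snord22 (U22), which is needed for maturation of 18S ribosomal RNA, lies at 8725866 to 8725991 on chromosome 19 in Snhg1 (8723487 to 8726326). The region near it, at 8716220 to 8716524 (305 bp), had the lowest score of the 7 (26) and lay 9.49 kb from the gene. Its midpoint was inside Slc3a2, the heavy chain of a heterodimeric amino acid transporter, at 2.48 kb from the nearest tabled start, one of Slc3a2. Of the 8 snoRNA genes in Snhg1, the other 7 have no Snord symbol and were also within 10 kb of this region.

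Snord12, at 167065293 to 167065358 on chromosome 2, lies in Zfas1 (167062934 to 167065862), a non-coding transcript beside Znfx1. Its region, at 167075104 to 167075357 (254 bp, score 28), was inside the long non-coding RNA gene Gm39984 and at 9.87 kb only just within the limit. The other 2 snoRNA genes of Zfas1, which have no Snord symbol, lay beyond 10 kb. Of the 4 non-coding hosts, none held a region in its own body.

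The remaining 2 members outside the array lie in protein-coding hosts. Snord8, at 52209786 to 52209884 on chromosome 14, lies in Chd8, the gene of a chromatin remodeller (52198151 to 52258042), and in the overlapping long non-coding RNA gene Gm26590 (52204909 to 52213856). Its region, at 52204756 to 52205060 (305 bp), had the highest score of the 7 (69), a score that 888 of all regions (17.9%) reached. It lay 4.88 kb from Snord8, inside Chd8, and spanned the boundary of Gm26590 at its lower coordinate, 52204909. The region thus fell inside a gene whose span also holds the member.

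Snord14e, at 40804748 to 40804838 on chromosome 9, is 1 of 3 copies of the U14 snoRNA, which acts in 18S ribosomal RNA processing, in Hspa8, the gene of a constitutive heat shock protein (40801276 to 40805202). The nearest region, at 40814344 to 40814740 (397 bp, score 42), lay in no annotated gene, 9.7 kb from Snord14e, 10.5 kb from Snord14d and 10.9 kb from Snord14c. The 10 kb limit thus divided a set of 3 genes that share a host and a nearest region.

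**Figure D2:**
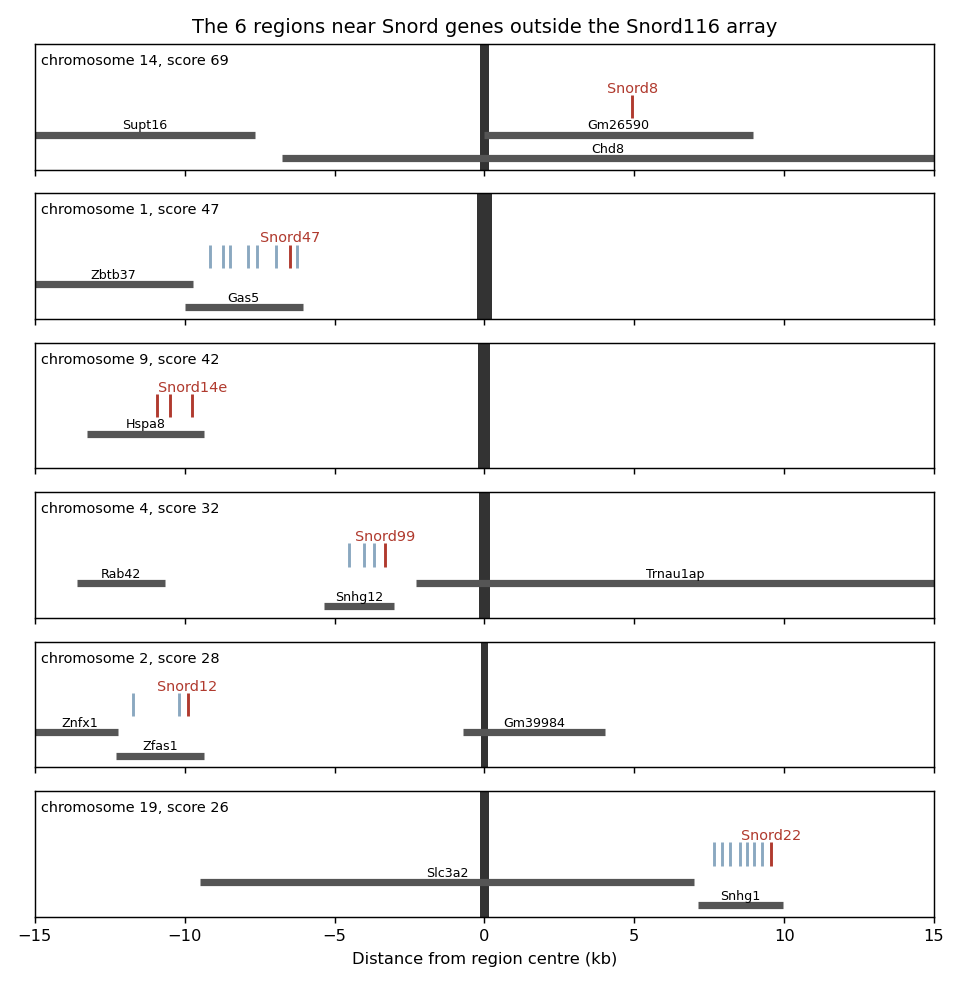
Each panel is centred on 1 of the 6 regions (black band) near a Snord gene outside the Snord116 array, with distance from the region centre in kb on the x axis. Ticks mark snoRNA genes (red with a Snord symbol, blue without) and grey bars the protein-coding and long non-coding genes. No tick touches a band, and at Gas5, Snhg12 and Snhg1 the region lies beyond the non-coding host. Not every coding gene is drawn.

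In the Snord116 array, the region at chromosome 7, 59879357 to 59879576, covered the whole of Snord116l8 (59879459 to 59879552), so that this was the sole Snord gene with a region midpoint inside it. Among all 4920 genes of 221 bases or less, 2 (0.0407%) had a midpoint inside, the other being the snRNA gene Gm22308 on chromosome 5. The region was 220 bp wide, close to the narrowest of the list (219 bp), and its score of 54 was reached by 1271 regions (25.6%). Besides Snord116l8 it stood within 10 kb of Snord116l2, Snord116l7, Snord116l13, Snord116l6, Snord116l14 and Snord116l5. The other 10 of the 17 genes had the same nearest region at distances of up to 25.29 kb.

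The symbol rule reached only part of the array. Snhg14, the long host transcript (59272737 to 60450177, 1177 kb), held 206 snoRNA genes in the table, of which 18 had a Snord symbol (17 Snord116 genes and Snord64) and 188 did not. Of these, 204 fell into 2 blocks, and Snord64 (59978811 to 59978856) and LOC115486845 (59980876 to 59980945) stood apart from both. The blocks are divided at the lower-coordinate end of Ipw, a long non-coding RNA gene. The block from within Ipw to Snord116l12 (59673461 to 59904848, 231.4 kb) held 70 snoRNA genes, 65 of them 94 bases long as Snord116l8 is, at a median spacing of 2.53 kb, and it was interrupted by 52.2 kb without a listed snoRNA gene. The block on the far side of Ipw, where the Snord115 array is known to lie (59347173 to 59619095, 271.9 kb), held 134 snoRNA genes, 128 of them 79 bases long, at a median spacing of 1.87 kb.

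All 5 FLAG-Zscan4 regions inside Snhg14 lay in the block with the Snord116 genes and none lay in the block where Snord115 is known to lie. The 5 regions stood in 143 kb between 59736807 and 59879576, which made 21.6 regions per Mb of that block, beside 1.79 per Mb over chromosome 7. The block was chosen after its regions were seen, and this number carries no test. The block where Snord115 is known to lie spans 271.9 kb. Beside 1.79 regions per Mb over chromosome 7, nothing is read from its count of 0. Going along the chromosome, their scores were 90 (59736807 to 59737027), 207 (59760850 to 59761075), 39 (59768594 to 59768860), 14 (59787086 to 59787431) and 54, the last being the region at Snord116l8. The first 4 stood among snoRNA genes without a Snord symbol and were not within 10 kb of a Snord gene by symbol.

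Their place relative to the repeated genes varied. The first lay 0.511 kb past Gm23953, the second 0.592 kb before Gm25471, the third 0.411 kb before Gm25210 and the fourth 0.347 kb past Gm22941, each a gene of 94 bases, while the fifth lay inside Snord116l8. Each of the 5 stood within 10 kb of 7 or 8 snoRNA genes of the block. In total 34 of the 70 genes had a region, beside 8.89% of all genes and 5.69% of short genes. These 34 genes share the 5 regions, in a block with a median spacing of 2.53 kb, so they are not 34 independent items. With all snoRNA genes of Snhg14 added to the family, 40 of 282 genes (14.2%) had a region, from 11 regions in all. The shares of all genes and of short genes were 8.89% and 5.69%, and 34 of the 40 genes were those of this block. Copies of the array are near-identical in sequence, and how reads that match several copies were placed was not stated in the labels or notes used here, so the copy to which a region belongs is uncertain. Whether read placement or the number of copies in J1 bears on the regions of this block was not tested.

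Another imprinted snoRNA array of the mouse lies in Rian on chromosome 12 (109603945 to 109661716, 57.8 kb). The table lists 11 snoRNA genes in it, none with a Snord symbol. None of them had a region within 10 kb, and neither Rian nor the neighbouring Meg3 and Mirg did. Rian is much shorter than Snhg14, and with 4.67% of the 1049 snoRNA genes that have no Snord symbol and lie outside Snhg14 near a region (49 genes), no difference is read from a count of 0 among 11.

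The 7 regions near Snord genes had scores of 69 (Snord8), 54 (Snord116l8), 47 (Snord47), 42 (Snord14e), 32 (Snord99), 28 (Snord12) and 26 (Snord22). Their median was 42, against 33 over the list, and 4 of the 7 were at or above the list's median. All but that of Snord8 lay between the quartiles of the list (23 and 55). Their widths ran from 220 to 513 bp with a median of 305 bp, beside 310 bp over all regions. None had another region within 10 kb, the nearest being 14.6 kb from the region in Slc3a2.

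**Figure D3:**
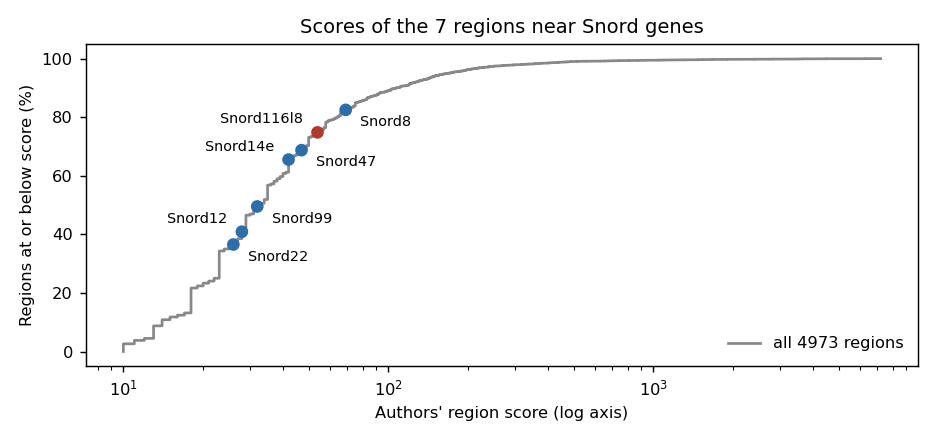
The grey line gives the percentage of all 4973 regions (y axis) at or below each of the authors' scores (x axis, logarithmic). Points mark the 7 regions near Snord genes, red for the Snord116 array, which lie between scores of 26 and 69.

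Most members had no region near them, as was true of most genes: 8.89% of all genes and 5.69% of short genes had one. Of the 81 Snord genes without a region within 10 kb, 71 lay outside the Snord116 array, and for 35 of the 94 genes the nearest midpoint was more than 100 kb away. The share beyond 100 kb was not computed for other genes. The median distance of short genes was itself beyond 100 kb, so these counts do not mark the family as far from regions. The median distance was 82.7 kb (quartiles 22.1 and 191 kb) over all 94 genes and 96.7 kb (56.1 and 273 kb) over the 77 outside the array, beside 167 kb (63.3 and 366 kb) over the 4920 short genes. The family was chosen by nearness to regions, so these distances are a description and carry no test. The 17 array genes also share 1 nearest region. The largest distance, 2075 kb, belonged to Snord61 in Rbmx on the X chromosome, followed by Snord13 on chromosome 8. Just outside the limit of 10 kb stood Snord116l15 (10044 bp), Snord116l4 (10126 bp), Snord14d (10461 bp), Snord14c (10873 bp) and Snord116l16 (12586 bp). Just inside it were Snord22, Snord14e and Snord12, so that 3 of the 6 members outside the array had their region beyond 9 kb.

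**Figure D4:**
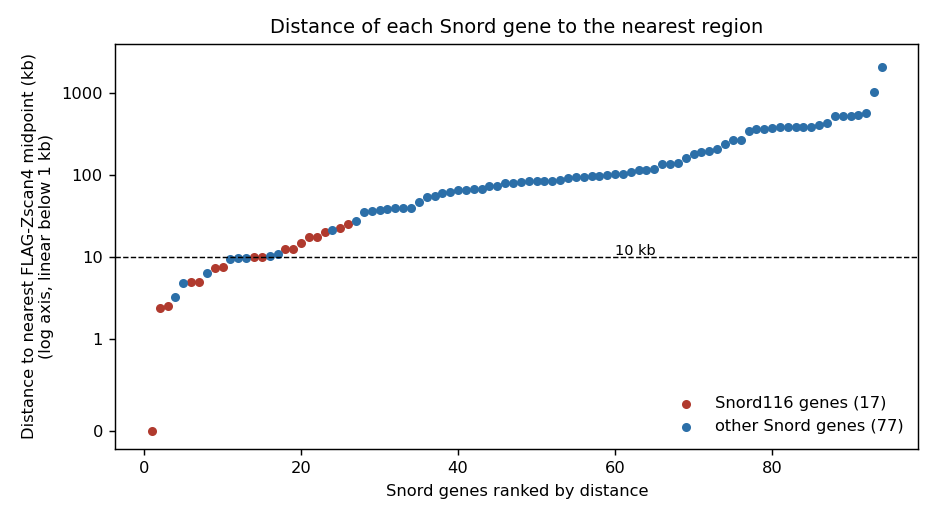
Each point is 1 of the 94 Snord genes, ranked by distance to the nearest FLAG-Zscan4 midpoint (x axis), with that distance in kb on the y axis, logarithmic above 1 kb. Points below the dashed line at 10 kb are the 13 genes counted, and several red and blue points lie close to the line on either side.

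Members in ribosomal protein genes had no region near them. Of the 94 genes, 91 lay in 59 host genes (42 protein-coding, 17 long non-coding), counting as host any such gene whose span holds the snoRNA gene on either strand. Snord89, Snord13 and Snord118 lay in none. Hosts for ribosomal proteins of the Rpl and Rps series numbered 14 and held 23 Snord genes, among them 4 in Rpl13a (Snord32a, Snord33, Snord34 and Snord35a) and 3 in Rpl23a, and 0 of these 23 had a region within 10 kb. Such genes stand in few loci, so they are not 23 independent items, and beside the 5.69% of short genes no difference is read from a count of 0. Of all 59 hosts, 3 held a region in the body, among them Snhg14 and Chd8. Over all genes, 4.46% did.

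Genes that act with box C/D snoRNAs were examined as lists. None of the 4 box C/D core protein genes (Fbl, Nop56, Nop58 and Snu13) had a region in the gene or within 10 kb, nor had any of the 4 box H/ACA core protein genes (Dkc1, Nhp2, Nop10 and Gar1). Nop56 and Nop58 are themselves hosts, of Snord57 and Snord110 and of Snord11 and Snord70. Of 11 genes for snoRNP assembly, 2 had a region: Shq1, an assembly factor of H/ACA particles (chromosome 6, 100571811 to 100671183, with a region at 100571130 to 100571670, score 44, at 0.411 kb), and Znhit3, a C/D assembly factor (region score 23 at 3.62 kb). Beside the 8.89% of all genes and 11.8% of protein-coding genes, nothing is read from lists of 4 or 11 genes.

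Among 39 box H/ACA snoRNA genes, which guide pseudouridylation, 4 (10.3%, beside 8.89% of all genes and 5.69% of short genes) had a region. Of these 4, 3 were the Snora genes of Snhg12 that share the region of Snord99. The fourth was Snora19 (chromosome 19, region score 32 at 7.53 kb). Of 9 Cajal body RNA genes, which guide modification of spliceosomal RNA, 2 had a region (22.2%, beside 8.89% of all genes and 5.69% of short genes). They were Scarna6 (score 34 at 3.53 kb) and Scarna3b (score 92 at 2.54 kb), and nothing is read from a list of 9 genes. Of 20 non-coding host genes (Gas5, Epb41l4aos and the Snhg series), 5 had a region (25%, beside 8.42% of long non-coding RNA genes and 8.89% of all genes): Gas5, Snhg12, Snhg1, Snhg14 and Snhg15, the last with a region of score 42 at 8.17 kb. Their list has a median length of 2954.5 bases, while Snhg14 spans 1177 kb. It also overlaps the family, which was chosen by its regions, so nothing is read from the 25%. In the Snurf-Snrpn domain, Snhg14 was the single gene of 9 with a region (11.1%, beside 8.89% of all genes). Snurf, Snrpn, Ube3a, Ndn, Magel2, Mkrn3, Peg12 and Ipw had none within 10 kb. Snhg14 spans 1177 kb, where the median length in this list is 22705 bases, so no difference is read between these genes. Of 18 genes for RNA polymerase I and ribosomal RNA processing, Polr1b held a region of score 13 and Utp14a had one of score 23 at 7.95 kb (11.1% of the list, beside 11.8% of protein-coding genes). The first 4 of the non-coding hosts hold Snord genes with a region and so repeat the count of the family. Over the snoRNA genes without a Snord symbol as a whole, 76 of 1237 (6.14%) had a region, and these shared 39 regions.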

How the data were processed

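One list of regions from 1 FLAG immunoprecipitation was used. Per the submitters' processing notes, the tools were cutadapt, Bowtie2, MACS2 and deepTools on the mm10 build. No source used here gives their versions, thresholds or control. The score of each region was deposited by the authors as a whole number of unstated scale. Region start and end, deposited by the authors with a 0-based start, are printed as 1-based positions in bp. The list gives no read counts, so depth and its precision are unknown.

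Genes came from a RefSeq table of GRCm38.p6 with 49997 genes. Left out were 21 without a usable position and, except on Y and the mitochondrial genome, 340 that start before 3 Mb, which left 49636. Distances ran from a region's midpoint to the nearer end of a gene. Shared regions were counted once. The placement step was tested on simulated regions. Python 3.11.15 with numpy 2.4.6 and pandas 2.3.3 was used.

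The members, lists and alternatives were chosen with earlier results of these data known. Named were every Snord gene with a region within 10 kb, the gene around it, the 5 Snord genes just outside, and list genes with a region; genes of Snhg14, Rian and ribosomal protein hosts, Snord61, Snord13 and Gm22308 were added after their values were seen. Alternatives were windows of 0, 5 and 50 kb, overlap of at least 1 bp, the 2510 and 1252 regions of highest score, merging within 1 kb and other joining of loci. An item near 1 member is not reported here. No test was run, since there was 1 sample per group and the family was chosen by its regions.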

Additional observations from a re-analysis of the deposited data

How the results depend on the processing

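Counts of Snord genes near a region followed the window. With the midpoint in the gene body only, 1 gene (1.06%, in the array, beside 4.46% of all genes and 0.0407% of short genes), 0 genes outside the array and 1 region were counted, with 5 kb 6 genes (4 in the array, 2 outside) and 3 regions, and with 50 kb 35 genes (37.2%, beside 23.2% and 20.3%; 17 in the array, 18 outside) and 16 regions of median score 27. At 5 kb the family's 6.38% was no longer above all genes (6.58%), and the 2.6% outside the array was below short genes (3.01%). With the 2510 regions of highest score (33 or more), 10 genes (10.6%, beside 4.64% of all genes and 3.41% of short genes) were counted, 3 of them outside the array (3.9%), and 4 regions. With the 1252 highest (55 or more), 1 gene (1.06%, beside 2.21% and 1.46%) and 1 region were left, at Snord8, and 0 genes in the array, whose region scores 54. With each gene its own locus, 13 loci were counted in place of 7. Adding all snoRNA genes of Snhg14, a choice made after seeing the data, gave 40 of 282 genes (14.2%) and 11 regions. All genes stood at 8.89% and short genes at 5.69%. Of 36 alternative values, 22 differed from the main value by more than 1.5 times. The other 14, among them overlap of at least 1 bp and merging of regions within 1 kb, did not. This tally compared counts and score medians, not shares. The 40 of 282 genes was among the 22, though its share of 14.2% was near the main 13.8%. Windows and score subsets also changed the shares of all genes and of short genes. The score median was not computed for subsets by score. No paired analysis was possible because each group had 1 sample. With no counts or replicate, neither depth nor reproducibility of a region could be assessed.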
